A study of Mus musculus with 20 samples.

Results

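The change in crypt gene expression that accompanied co-housing, averaged over wild-type and Xiap-/- mice, was measured for 9521 of 23020 genes in 20 libraries. The genes were those with a mean of at least 3.32 over the libraries, which is log2 of 10 on the scale of the deposited values. For each gene the difference between co-housed mice and mice housed apart was taken within each genotype, and the mean of these 2 differences was tested with genotype in the model. A gene is called shifted alike where it passed that test, both differences had 1 sign, and the smaller was at least 50% of the larger in size. Of the 9521 genes, 17 passed and 11 of these were shifted alike.

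RNA came from small intestinal crypts of C57BL/6 mice and was sequenced from the 3′ end of each polyadenylated transcript, with molecular identifiers. The groups were 5 co-housed Xiap-/- mice, 4 Xiap-/- mice housed apart, 5 co-housed wild-type mice and 6 wild-type mice housed apart. Co-housed mice of both genotypes had shared cages for 4 weeks, while mice housed apart lived with their own genotype. The labels name neither cage, age, collection time nor the deleted part of Xiap, so that a cage and the housing it belonged to cannot be told apart. They do not say whether the libraries are independent, and p-values measure the spread between these libraries. Differences are on the log2 scale throughout, as co-housed minus housed apart, and errors of differences are standard errors of the model.

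Mice that share a cage eat each other's droppings, and co-housing is commonly used to even out their gut microbes. The crypt is the epithelial pit in which stem cells divide, Paneth cells secrete antimicrobial peptides, and daughter cells start to mature into absorptive and secretory cells of the villus. XIAP inhibits caspases, the proteases of programmed cell death, and also takes part in signalling from the bacterial sensor NOD2.

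The libraries had the make-up of small intestinal epithelium, including genes of mature absorptive cells, and the share of villus cells was not measured. Defa24 of Paneth cells had a mean level of 14.17, Fabp2 of absorptive cells 13.75 and Zg16 of goblet cells 12.80, while albumin (Alb) lay at -2.70, although the extraction text speaks of liver. Of T cell markers 17 of 20 lay above the minimum mean, with Gzma at a mean of 9.16. Other cell types were scarce, with 4 of 14 markers of B and plasma cells and 5 of 18 of myeloid and mast cells above it. The counts were 1 of 15 stromal, 0 of 8 glial or neuronal, 2 of 14 acinar, 1 of 12 hepatocyte and 1 of 6 blood markers. Xiap itself, read at a 3′ end that may lie outside the deletion, had levels of 6.62 ± 0.22 in co-housed Xiap-/- mice, 6.38 ± 0.10 in Xiap-/- mice housed apart, 6.67 ± 0.20 in wild-type mice that were co-housed and 6.81 ± 0.17 in wild-type mice housed apart (SD), with an average housing difference of 0.05 ± 0.08. Sequencing depth is unknown. As its proxy, the percentage of rare genes that stood clear of their plateau was 8.77% ± 2.77 in co-housed and 17.1% ± 10.5 in apart Xiap-/- mice, and 8.74% ± 1.47 in co-housed and 7.71% ± 3.69 in apart wild-type mice (average difference -3.65 points, exact permutation p = 0.207, two-sided). The sign turned with a wider step above the plateau, of 0.05, at which the average difference was 2.53 points (exact permutation p = 0.00651). In wild-type mice housed apart, replicates 5 and 6 stood apart in microbe-responsive genes, with Duox2 at 5.18 and 5.19 against 6.23 to 6.64 in the other 4.

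Co-housed crypts of both genotypes had less transcript of 7 genes, among them the secreted nuclease Dnase1, the nucleoside carrier Slc28a1, the clock repressor Nr1d1 and the stress-responsive gene Ndrg1. They had more of 4 genes, the epithelial kinase Ptk6, the death domain protein Unc5cl, the chaperone Hsp90aa1 and the Rab11-binding protein Wdr44. Shifts were small, from 0.28 to 0.62 in size. By limma with Benjamini-Hochberg adjustment over all tested genes, 17 genes passed at an adjusted p under 0.05 (0.179% of those tested), of which 7 were higher (0.0735%) and 10 lower (0.105%). The rule for alike was met by 2410 of all tested genes (25.3%), and both differences had the same sign for 5499 (57.8%). The median difference of all tested genes was -0.00. An unadjusted p under 0.05 was found for 1371 genes (14.4%), 613 of them higher (6.44%) and 758 lower (7.96%).

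**Figure D1:**
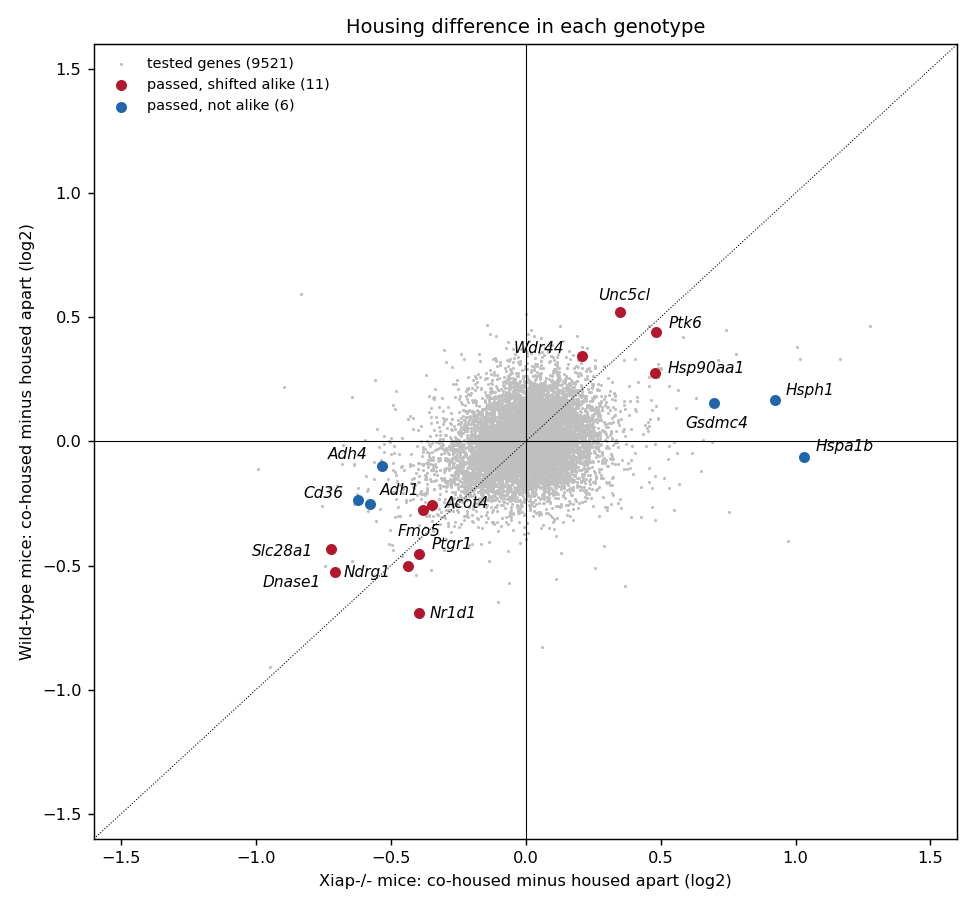
Each point is 1 of the 9521 tested genes, with its log2 difference between co-housed mice and mice housed apart in Xiap-/- mice on the x axis and in wild-type mice on the y axis. The 11 genes shifted alike (red) lie near the dotted line of equal differences, and of the 6 that passed without being alike (blue), Hspa1b lies farthest from it, at 1.03 in Xiap-/- and -0.06 in wild-type mice.

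Within a single genotype fewer calls were made. In Xiap-/- mice 14 genes passed (0.147%), 5 higher (0.0525%) and 9 lower (0.0945%), and 1072 had an unadjusted p under 0.05 (11.3%). In wild-type mice 0 genes passed by limma, 969 had an unadjusted p under 0.05 (10.2%), and the smallest adjusted p was 0.0612, for Nr1d1 and Ndrg1 among others. In wild-type mice 5 genes passed with array quality weights. The differences of the genotypes, which share no samples, had a correlation of 0.25 across the 9521 genes, which are not independent points. Co-housed mice of both genotypes had shared cages, so that both differences may hold the same cage effects. Their likeness is thus no independent replication. The test of the difference between the housing differences called 1 gene (0.0105%), Hspa1b, which reached the minimum mean through the group in which it was high, and 671 had an unadjusted p under 0.05 (7.05%).

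Dnase1, a secreted endonuclease that degrades extracellular DNA (chromosome 16, 4036942 to 4040024 on GRCm38, plus strand), had the smallest p of all genes. Its levels were 8.79, 8.70, 8.86, 8.98 and 8.92 in co-housed Xiap-/- mice, against 9.23, 9.66, 9.86 and 9.47 in Xiap-/- mice housed apart. They were 8.70, 8.80, 8.80, 8.74 and 8.84 in co-housed wild-type mice, against a lowest of 8.91, a median of 9.34 and a highest of 9.72 in wild-type mice housed apart. Within each genotype all co-housed mice lay below all mice housed apart. Averaged over the genotypes, the difference was -0.62 ± 0.08 (limma adjusted p = 0.000197), made of -0.71 in Xiap-/- and -0.53 in wild-type mice. It passed under each alternative tried. Trap1 overlaps Dnase1 on the other strand and had a difference of 0.02 ± 0.06. Whether reads were counted by strand is not given in the sources used here.

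Ndrg1, a cytoplasmic protein induced by hypoxia and other stress (chromosome 15, 66929318 to 66969640, minus strand), passed under each alternative tried, as did Dnase1 and Ptk6. Its levels were 8.15, 7.83, 7.78, 7.76 and 7.86 in co-housed Xiap-/- mice, against 8.17, 8.45, 8.28 and 8.35 in Xiap-/- mice housed apart. They were 7.58, 7.47, 7.39, 7.44 and 7.52 in co-housed wild-type mice, against a lowest of 7.63, a median of 8.0 and a highest of 8.38 in wild-type mice housed apart. The groups did not overlap in either genotype, though co-housed Xiap-/- replicate 1, at 8.15, lay just under the lowest Xiap-/- mouse housed apart, at 8.17. Over both genotypes the difference came to -0.47 ± 0.07 (limma adjusted p = 0.00232), with -0.43 in Xiap-/- and -0.50 in wild-type mice. Co-housed Xiap-/- mice, with a mean of 7.88, lay near wild-type mice housed apart, with one of 7.98.

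Slc28a1 and Acot4 take part in nucleoside and lipid handling. Slc28a1, a sodium-coupled carrier of pyrimidine nucleosides (chromosome 7, 81114799 to 81170416, plus strand), had levels of 5.96, 5.64, 6.10, 5.83 and 6.33 in co-housed Xiap-/- mice, against 6.62, 6.54, 6.86 and 6.75 in Xiap-/- mice housed apart. In co-housed wild-type mice the levels were 5.81, 5.75, 5.63, 5.70 and 6.10, against a lowest of 5.61, a median of 6.20 and a highest of 6.71 in wild-type mice housed apart. The Xiap-/- groups did not overlap, whereas wild-type replicate 4 housed apart, at 5.61, lay below every co-housed wild-type mouse. This gave an average difference of -0.58 ± 0.11 (limma adjusted p = 0.0265; -0.72 in Xiap-/- and -0.43 in wild-type mice). It passed in 12 of 20 fits with a library left out, and was lost without co-housed wild-type replicate 1, 2, 3 or 4, Xiap-/- replicate 3 or 4 housed apart, or co-housed Xiap-/- replicate 2 or 4 (adjusted p up to 0.116). Its relatives Slc28a2 and Slc28a3 had differences of the other sign, 0.21 ± 0.08 and 0.28 ± 0.08, and did not pass.

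Acot4, a peroxisomal enzyme that splits acyl-CoA esters (chromosome 12, 84038379 to 84048601, plus strand), had levels of 4.95, 4.70, 4.76, 4.73 and 4.91 in co-housed Xiap-/- mice, against 4.99, 5.06, 5.43 and 5.16 in Xiap-/- mice housed apart. Co-housed wild-type mice had 4.72, 4.62, 4.76, 4.77 and 4.76, against a lowest of 4.84, a median of 4.98 and a highest of 5.14 in wild-type mice housed apart. As for Dnase1, neither genotype's groups overlapped. The average difference was -0.30 ± 0.06 (limma adjusted p = 0.0238; -0.35 in Xiap-/- and -0.26 in wild-type mice). It passed in 15 of 20 fits with a library left out, and was lost without co-housed wild-type replicate 2, Xiap-/- replicate 3 or 4 housed apart, or co-housed Xiap-/- replicate 2 or 4 (adjusted p up to 0.115). Its neighbours Acot1 and Acot2 lay at means of 3.19 and 3.20, under the minimum for testing.

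The sequence upstream of Acot4 and a stretch near the start of Dnase1 are shown because these are 2 of the genes whose groups did not overlap in either genotype and because they hold short motifs read by regulators of the clock and of metabolism. They are RefSeq sequences of GRCm38.p6, written 5′ to 3′ on the gene's strand, and positions count back from the start of the RefSeq entry. Capitals in Acot4 (chr12:84038129-84038378, plus strand) mark CACGTG, the E-box of clock activators, at -66 and AGGTCA, the core site of many nuclear receptors, on the opposite strand at -13.
Acot4: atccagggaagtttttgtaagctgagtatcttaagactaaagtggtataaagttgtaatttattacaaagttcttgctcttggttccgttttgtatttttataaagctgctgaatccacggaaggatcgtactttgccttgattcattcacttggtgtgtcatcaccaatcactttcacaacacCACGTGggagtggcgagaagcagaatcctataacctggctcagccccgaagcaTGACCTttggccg
Capitals in Dnase1 (chr16:4036984-4037013, plus strand) mark CACGTG, at -40 from the start of one RefSeq entry and at -149 from that of the other. Both of these starts lie downstream of the GENCODE start given above, so that the stretch lies inside the GENCODE gene.
Dnase1: tgttgatgtcagCACGTGctatcagcctgc
In windows of 250 bases on both strands, CACGTG occurred in 6.02% and AGGTCA in 14.0% of 32851 RefSeq promoter entries, and the 2 motifs share no bases here. Of the 13 passing genes with an entry, 3 held CACGTG in at least 1 entry, which were Dnase1, Acot4 and Hsph1, a gene that rose. In Hsph1 it lay at -19 from the start of 1 entry and was absent from the other. The clock gene Nr1d1 held neither motif. AGGTCA was held by 4 of the 13 genes in at least 1 entry. These counts are by gene and the percentages by entry, so that they are not on the same footing. A match describes letters and no binding.

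Fmo5 and Ptgr1 encode oxidoreductases, Fmo5 a flavin-dependent monooxygenase (chromosome 3, 97628804 to 97655282, plus strand) and Ptgr1 a reductase that inactivates prostaglandins and leukotriene B4 (chromosome 4, 58965439 to 58987119, minus strand). Ptgr1 had levels of 8.42, 8.29, 8.48, 8.30 and 8.39 in co-housed Xiap-/- mice, against 8.56, 8.87, 8.87 and 8.79 in Xiap-/- mice housed apart. Levels in co-housed wild-type mice were 8.21, 8.01, 7.97, 8.13 and 7.98, against a lowest of 8.12, a median of 8.57 and a highest of 8.93 in wild-type mice housed apart. The only overlap was in wild-type mice, where replicate 4 housed apart, at 8.12, lay under 2 co-housed mice. Its average difference was -0.42 ± 0.08 (limma adjusted p = 0.00936; -0.39 in Xiap-/- and -0.45 in wild-type mice), and its relative Ptgr2 had -0.09 ± 0.07.

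Fmo5 had levels of 7.77, 7.53, 7.81, 7.76 and 7.78 in co-housed Xiap-/- mice, against 8.09, 8.10, 8.15 and 8.11 in Xiap-/- mice housed apart. In co-housed wild-type mice they were 7.73, 7.48, 7.56, 7.75 and 7.65, against a lowest of 7.62, a median of 7.83 and a highest of 8.21 in wild-type mice housed apart. The Xiap-/- mice housed apart had an SD of 0.03 and lay above all co-housed mice, and again wild-type replicate 4 housed apart lay within the co-housed range. Averaged over the genotypes, the difference was -0.33 ± 0.07 (limma adjusted p = 0.0331; -0.38 in Xiap-/- and -0.28 in wild-type mice). This call was among the least stable and passed in 11 of 20 fits with a library left out. It was lost without co-housed wild-type replicate 2, 3 or 5, wild-type replicate 6 housed apart, Xiap-/- replicate 2, 3 or 4 housed apart, or co-housed Xiap-/- replicate 2 or 4 (adjusted p up to 0.115).

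Nr1d1 encodes REV-ERB alpha, a nuclear receptor that represses the clock gene Arntl (chromosome 11, 98767932 to 98775333, minus strand). Its levels were 5.14, 5.23, 5.59, 5.46 and 5.19 in co-housed Xiap-/- mice, against 5.72, 5.89, 5.88 and 5.39 in Xiap-/- mice housed apart. They were 5.39, 5.62, 5.61, 5.58 and 5.41 in co-housed wild-type mice, against a lowest of 5.94, a median of 6.10 and a highest of 6.88 in wild-type mice housed apart. The wild-type groups did not overlap, and in Xiap-/- mice replicate 4 housed apart lay within the co-housed range. Over both genotypes the difference came to -0.54 ± 0.10 (limma adjusted p = 0.0114; -0.40 in Xiap-/- and -0.69 in wild-type mice). It passed in 19 of 20 fits with a library left out, with an adjusted p of 0.0617 without Xiap-/- replicate 3 housed apart. Thra, which overlaps its 3′ end on the other strand, had a difference of -0.06 ± 0.08.

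Nr1d1 was the 1 gene of 15 tested clock genes that passed. The other clock genes named here, which did not pass, were picked once their values were known. The albumin D-box binding factor Dbp had -0.43 ± 0.13 (limma adjusted p = 0.144; -0.35 in Xiap-/- and -0.52 in wild-type mice). Its mean of 3.37 reached the minimum through the mice housed apart, and over the co-housed mice it was 3.15. The related factor Tef had -0.29 ± 0.08 (adjusted p = 0.0837; -0.24 in Xiap-/- and -0.33 in wild-type mice). Arntl, which encodes the clock activator BMAL1, had 0.18 ± 0.06 (adjusted p = 0.179; 0.03 in Xiap-/- and 0.34 in wild-type mice), and the repressor Cry1 had 0.19 ± 0.06 (adjusted p = 0.157). Nr1d2, the paralogue of Nr1d1, had -0.15 ± 0.08, and the period gene Per1 had -0.04 ± 0.07. At an unadjusted p under 0.05, 2 of the 15 were higher and 3 lower, with a median of 0.04, and without Dbp 2 of 14 were higher and 2 lower. The collection time of each mouse is not in the labels, so that time of day and housing cannot be told apart.

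**Figure D2:**
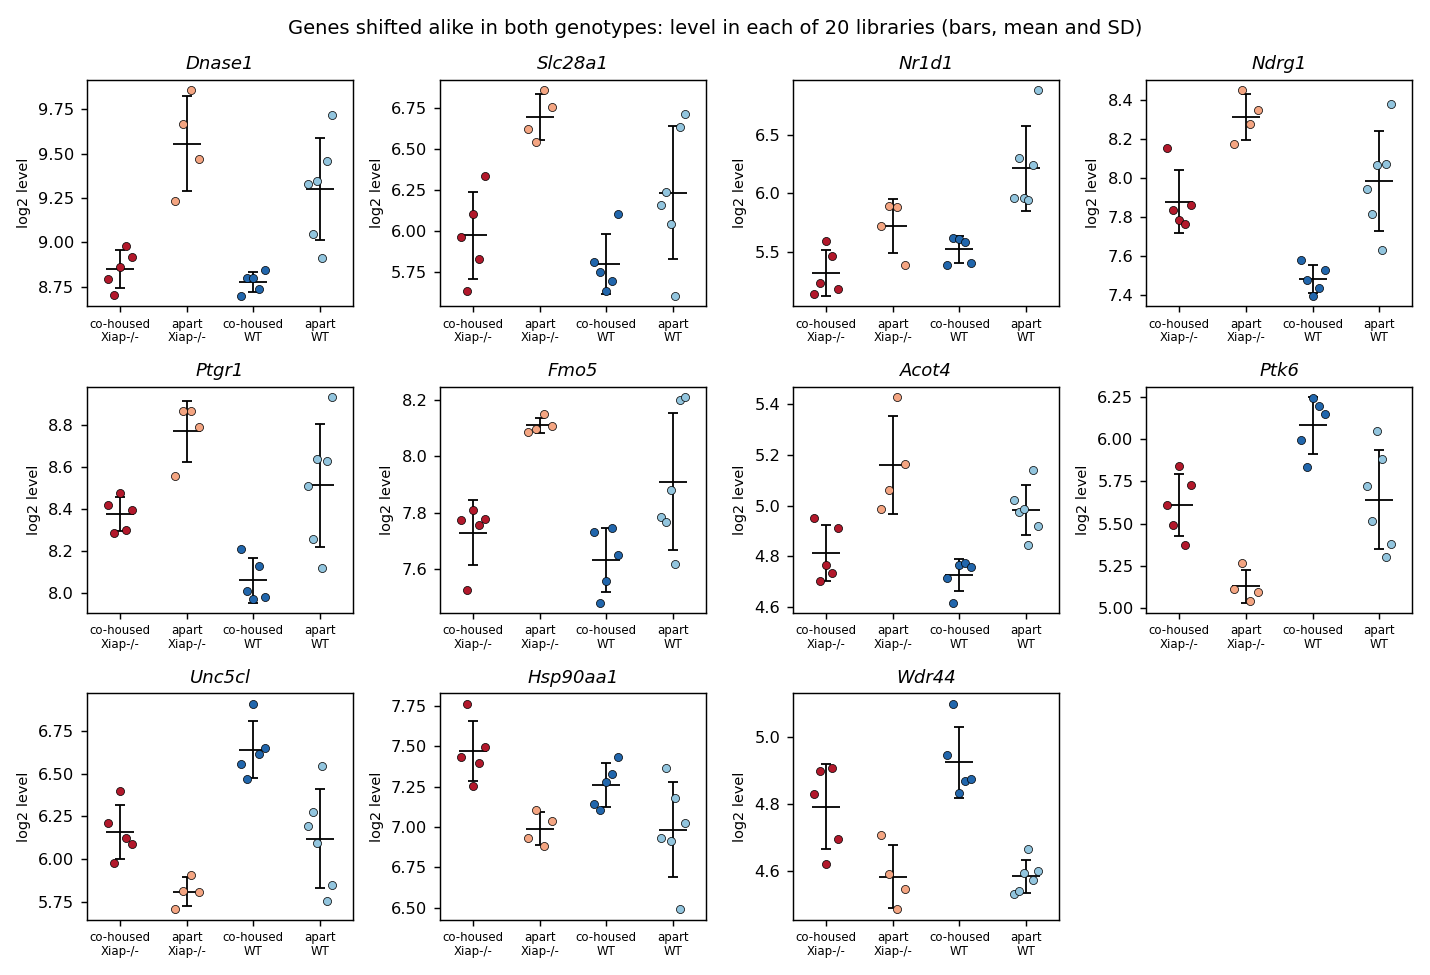
Log2 level (y axis of each panel, with its own range) of the 11 genes shifted alike in the 20 libraries, by group, with a point per library and bars for the mean and SD. In every panel the co-housed mean lies on the same side of the apart mean in both genotypes, and the groups of both genotypes are fully separated for Dnase1, Ndrg1 and Acot4.

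Among the 4 genes that rose alike, Ptk6, a Src-related kinase of differentiating gut epithelium (chromosome 2, 181193721 to 181202789, minus strand), was the largest. Its levels were 5.61, 5.49, 5.84, 5.37 and 5.73 in co-housed Xiap-/- mice, against 5.11, 5.26, 5.04 and 5.09 in Xiap-/- mice housed apart. They were 6.00, 5.83, 6.25, 6.20 and 6.15 in co-housed wild-type mice, against a lowest of 5.30, a median of 5.62 and a highest of 6.05 in wild-type mice housed apart. Groups of Xiap-/- mice did not overlap, while wild-type replicates 3 and 4 housed apart lay within the co-housed range. This gave an average difference of 0.46 ± 0.08 (limma adjusted p = 0.00936), nearly equal at 0.48 in Xiap-/- and 0.44 in wild-type mice.

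Unc5cl, a membrane protein with a death domain that activates NF-kB in human mucosal cells (chromosome 17, 48454901 to 48539714, plus strand), had levels of 6.21, 5.98, 6.40, 6.13 and 6.09 in co-housed Xiap-/- mice, against 5.71, 5.81, 5.91 and 5.81 in Xiap-/- mice housed apart. Co-housed wild-type mice had 6.55, 6.47, 6.91, 6.62 and 6.65, against a lowest of 5.75, a median of 6.14 and a highest of 6.54 in wild-type mice housed apart. Only wild-type replicate 4 housed apart, at 6.54, reached the co-housed range. The average difference was 0.44 ± 0.08 (limma adjusted p = 0.00936; 0.35 in Xiap-/- and 0.52 in wild-type mice).

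Wdr44, which binds the recycling endosome protein Rab11 (chromosome X, 23693051 to 23806025, plus strand), had levels of 4.83, 4.90, 4.62, 4.91 and 4.70 in co-housed Xiap-/- mice, against 4.71, 4.59, 4.48 and 4.54 in Xiap-/- mice housed apart. Levels in co-housed wild-type mice were 4.95, 5.10, 4.83, 4.87 and 4.88, against a lowest of 4.53, a median of 4.58 and a highest of 4.67 in wild-type mice housed apart. The wild-type groups did not overlap and the Xiap-/- groups did. Averaged over the genotypes, the difference was 0.28 ± 0.06 (limma adjusted p = 0.0264; 0.21 in Xiap-/- and 0.34 in wild-type mice). It passed in 14 of 20 fits with a library left out, and was lost without co-housed wild-type replicate 2, Xiap-/- replicate 2, 3 or 4 housed apart, or co-housed Xiap-/- replicate 2 or 4 (adjusted p up to 0.115).

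Heat shock chaperones that passed differed in how alike their shifts were. Chaperones of the heat shock response hold and refold damaged proteins and are induced through the factor HSF1. Of 17 tested members of the list, 3 rose (Hsph1, Hspa1b and Hsp90aa1), 7 were higher and 0 lower at an unadjusted p under 0.05, and the median was 0.10. By genotype the list's median was 0.19 in Xiap-/- and 0.05 in wild-type mice. Hspa1b reached the minimum mean only through the group in which it was high, and of the other 16 members 2 rose and 6 were higher at an unadjusted p under 0.05, with a median of 0.10. Hsp90aa1, the inducible HSP90 (chromosome 12, 110690605 to 110702728, minus strand), was the 1 shifted alike. Its levels were 7.43, 7.76, 7.26, 7.40 and 7.49 in co-housed Xiap-/- mice, against 6.93, 7.11, 6.88 and 7.04 in Xiap-/- mice housed apart. They were 7.14, 7.11, 7.28, 7.33 and 7.43 in co-housed wild-type mice, against a lowest of 6.49, a median of 6.98 and a highest of 7.36 in wild-type mice housed apart. The Xiap-/- groups did not overlap and the wild-type groups did.

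The average difference of Hsp90aa1 was 0.38 ± 0.08 (limma adjusted p = 0.0331; 0.48 in Xiap-/- and 0.28 in wild-type mice). It had the fewest passes with a library left out, 9 of 20. It was lost without any 1 of co-housed wild-type replicates 2 to 5, wild-type replicate 1 housed apart, Xiap-/- replicates 1, 3 and 4 housed apart, or co-housed Xiap-/- replicates 1, 2 and 4 (adjusted p up to 0.125). Of the genes shifted alike, Nr1d1 and Hsp90aa1 were closest to the limit of 50%, and of those not alike Adh1, at -0.58 in Xiap-/- and -0.25 in wild-type mice, was closest to it.

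Hspa1b, the inducible HSP70 (chromosome 17, 34956436 to 34959238, minus strand), rose on average by 0.49 ± 0.08 (limma adjusted p = 0.00678) with the rise seen in Xiap-/- mice. Its levels were 4.47, 4.30, 4.35, 4.00 and 5.00 in co-housed Xiap-/- mice, against 3.25, 3.33, 3.33 and 3.64 in Xiap-/- mice housed apart. They were 3.18, 3.21, 3.10, 3.27 and 3.19 in co-housed wild-type mice, against a lowest of 3.03, a median of 3.26 and a highest of 3.45 in wild-type mice housed apart. Every co-housed Xiap-/- mouse stood above all other mice, and the wild-type groups overlapped. The difference was 1.03 in Xiap-/- and -0.06 in wild-type mice, and the 2 differed by 1.10 ± 0.17 (limma adjusted p = 0.00254). Over the libraries outside the co-housed Xiap-/- group its mean was 3.27, under the minimum for testing, so that these tests are of a gene admitted by the group in which it was high. Its near-identical copy Hspa1a had a mean of 3.28, just under that minimum, and reads of the 2 cannot be told apart with certainty.

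Hsph1, an HSP110 chaperone that works with HSP70 (chromosome 5, 149614287 to 149636376, minus strand), had levels of 7.77, 8.05, 7.49, 7.28 and 7.65 in co-housed Xiap-/- mice, against 6.71, 6.93, 6.52 and 6.74 in Xiap-/- mice housed apart. In co-housed wild-type mice they were 6.86, 6.95, 7.21, 7.18 and 7.42, against a lowest of 6.47, a median of 7.03 and a highest of 7.29 in wild-type mice housed apart. Groups of Xiap-/- mice did not overlap and the wild-type groups did. Over both genotypes the difference came to 0.54 ± 0.10 (limma adjusted p = 0.0117), with 0.92 in Xiap-/- and 0.17 in wild-type mice, and the difference between these of 0.76 ± 0.20 did not pass (adjusted p = 0.429). Without Xiap-/- replicate 3 housed apart the average did not pass (adjusted p = 0.0633). Further members, chosen after their values were seen, did not pass: the HSP90 cochaperone Chordc1 had 0.22 ± 0.07, the constitutive Hsp90ab1 0.21 ± 0.08, Hspa8 0.17 ± 0.07 and the mitochondrial Hspd1 0.15 ± 0.06.

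**Figure D3:**
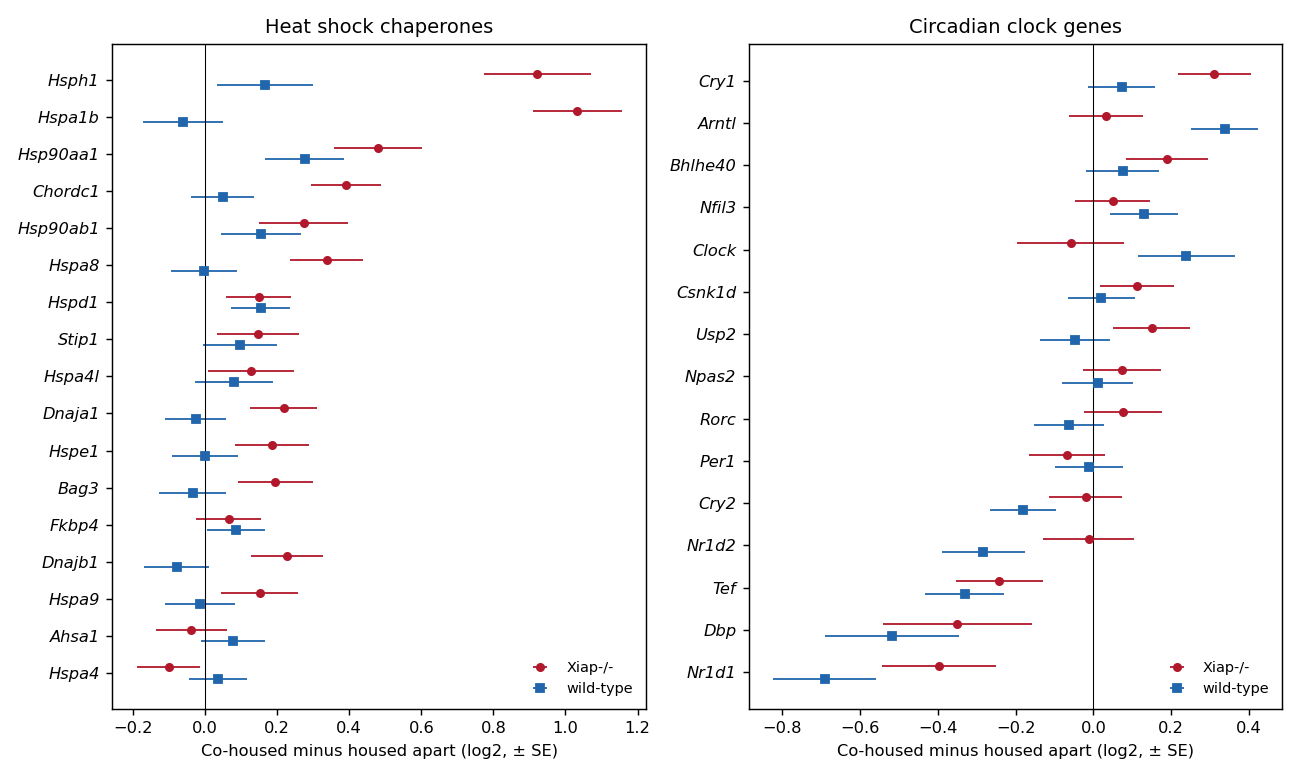
Log2 difference between co-housed mice and mice housed apart (x axis, with standard errors) of 17 heat shock chaperones and 15 clock genes, in Xiap-/- mice (circles) and wild-type mice (squares). Hspa1b and Hsph1 stand at 1.03 and 0.92 in Xiap-/- mice with wild-type values of -0.06 and 0.17, while Nr1d1 lies low in both genotypes.

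The upstream window of Hspa1b and a stretch near the start of Hsph1 are shown because these genes had the largest rises in Xiap-/- mice among the passing genes and hold paired repeats of the kind that HSF1 reads. Capitals mark such a pair. Hspa1b (chr17:34959239-34959488, minus strand) holds GAANNTTC at -104, and Hsph1 (chr5:149636351-149636380, minus strand) holds TTCNNGAA at -33 from the start of one RefSeq entry and at -54 from that of the other. The repeat in Hsph1 lies inside the GENCODE gene, which starts upstream of both entries.
Hspa1b: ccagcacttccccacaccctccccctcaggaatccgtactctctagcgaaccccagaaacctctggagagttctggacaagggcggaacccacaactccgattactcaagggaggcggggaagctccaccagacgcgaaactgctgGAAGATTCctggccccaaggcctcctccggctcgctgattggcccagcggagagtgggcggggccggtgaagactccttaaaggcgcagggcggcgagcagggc
Hsph1: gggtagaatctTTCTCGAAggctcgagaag
In windows of 250 bases GAANNTTC occurred in 6.69% and TTCNNGAA in 7.17% of the 32851 promoter entries, and 12.8% held at least 1 of them. Each motif reads the same on both strands, and the 2 can overlap each other. Among the 13 passing genes with an entry, 4 held at least 1, which besides Hspa1b and Hsph1 were Ptgr1 and Adh1. This count is by gene, whereas the percentages are by entry.

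The other 4 genes that passed without being alike had their larger difference in Xiap-/- mice. The fatty acid uptake receptor Cd36 (chromosome 5, 17781690 to 17888801, minus strand) had levels of 5.94, 5.71, 5.84, 5.69 and 6.02 in co-housed Xiap-/- mice, against 6.38, 6.53, 6.67 and 6.28 in Xiap-/- mice housed apart. The levels ran between 5.70 and 5.97 in co-housed wild-type mice, against 5.63 to 6.45 in wild-type mice housed apart. The Xiap-/- groups did not overlap and the wild-type range of mice housed apart took in all co-housed mice. This gave an average difference of -0.43 ± 0.09 (limma adjusted p = 0.0208), with -0.62 in Xiap-/- and -0.23 in wild-type mice, and it was lost without co-housed wild-type replicate 2, Xiap-/- replicate 3 housed apart, or co-housed Xiap-/- replicate 2 or 4 (adjusted p up to 0.106).

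The alcohol and retinol dehydrogenases Adh1 and Adh4, neighbours on chromosome 3 (138260991 to 138290698 and 138415466 to 138430892, plus strand), fell by 0.41 and 0.32 on the log2 scale. Adh1 had a mean of 10.06 ± 0.12 in co-housed Xiap-/- mice against 10.63 ± 0.24 in Xiap-/- mice housed apart and one of 9.86 ± 0.16 in co-housed wild-type mice against 10.11 ± 0.28 in wild-type mice housed apart (SD). Its limma adjusted p was 0.0265, and it passed in 11 of 20 fits with a library left out, being lost without any 1 of co-housed wild-type replicates 1 to 4, Xiap-/- replicates 2 to 4 housed apart, or co-housed Xiap-/- replicates 2 and 4 (up to 0.116). Adh4 had a mean of 4.38 ± 0.10 in co-housed Xiap-/- mice against 4.91 ± 0.17 in Xiap-/- mice housed apart and one of 4.38 ± 0.06 in co-housed wild-type mice against 4.48 ± 0.17 in wild-type mice housed apart. Its limma adjusted p was 0.0238, and it passed in 14 of 20 such fits, being lost without any 1 of co-housed wild-type replicates 2 and 5, Xiap-/- replicates 3 and 4 housed apart, or co-housed Xiap-/- replicates 2 and 4 (up to 0.115). For both genes the Xiap-/- groups did not overlap and the wild-type groups did.

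Gsdmc4, a gasdermin, of the family of proteins that form pores in cell membranes (chromosome 15, 63891264 to 63912297, minus strand), had levels of 5.96, 6.18, 5.93, 6.51 and 6.21 in co-housed Xiap-/- mice, against 5.72, 5.30, 5.21 and 5.61 in Xiap-/- mice housed apart. The levels ran between 5.81 and 6.34 in co-housed wild-type mice, against 5.66 to 6.09 in wild-type mice housed apart. Groups of Xiap-/- mice were separate and the wild-type groups overlapped. The average difference was 0.43 ± 0.09 (limma adjusted p = 0.0258), with 0.70 in Xiap-/- and 0.15 in wild-type mice. It passed in 13 of 20 fits, being lost without co-housed wild-type replicate 1, 2 or 4, Xiap-/- replicate 2 or 3 housed apart, or co-housed Xiap-/- replicate 2 or 4 (up to 0.115). Its paralogue Gsdmc2 had 0.26 ± 0.08 without passing, and reads of paralogues may have been shared. For none of Cd36, Adh1, Adh4 and Gsdmc4 did the difference between the genotypes pass.

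Complete separation of the housings within both genotypes and in the same direction was seen for 6 genes (0.063%). These were Dnase1, Ndrg1, Acot4 and Upb1 with lower levels in co-housed mice (0.042%), and Orc6 and 2310035C23Rik with higher levels (0.021%). Within Xiap-/- mice alone the groups did not overlap for 536 genes (5.63%), and within wild-type mice for 50 (0.525%). Upb1, the last enzyme of pyrimidine breakdown, had levels of 4.13, 3.64, 3.92, 3.88 and 4.00 in co-housed Xiap-/- mice, against 4.21, 4.22, 4.37 and 4.14 in Xiap-/- mice housed apart. Co-housed wild-type mice had 3.72, 3.90, 3.75, 3.87 and 3.81, against a lowest of 3.92, a median of 3.99 and a highest of 4.37 in wild-type mice housed apart. Its average difference of -0.30 ± 0.07 did not pass (limma adjusted p = 0.0538), nor did that of Orc6, a subunit of the origin recognition complex, at 0.23 ± 0.06 (adjusted p = 0.0752).

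A few genes had differences as large without passing. Just outside the threshold stood Abcb1a, an efflux pump of the brush border, with -0.39 ± 0.09 (limma adjusted p = 0.0504), next in order after Hsp90aa1. Pck1, which makes phosphoenolpyruvate in gluconeogenesis, had levels of 7.08, 6.35, 6.65, 6.87 and 6.89 in co-housed Xiap-/- mice, against 7.08, 8.23, 7.80 and 7.76 in Xiap-/- mice housed apart. Levels in co-housed wild-type mice were 6.18, 6.56, 6.37, 6.34 and 6.04, against a lowest of 6.46, a median of 6.99 and a highest of 7.99 in wild-type mice housed apart. The Xiap-/- groups met at 7.08 and the wild-type groups overlapped. Its difference of -0.93 ± 0.19 was almost equal at -0.95 in Xiap-/- and -0.91 in wild-type mice, with an adjusted p of 0.0578. Without wild-type replicates 5 and 6 housed apart, which had 7.87 and 7.99, it was -0.75 and passed (limma adjusted p = 0.0248). That fit was added after the values were seen. Abcb1a, Upb1, Orc6 and Pck1 were chosen after their values were seen.

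By list, most genes of mature absorptive cells had differences below 0 and most genes of stem and dividing cells had differences above 0, with few members passing. Of all 9521 tested genes, 4805 lay below 0 and 4716 above, and genes of a list are not independent points. At an unadjusted p under 0.05, 7.96% of all tested genes were lower and 6.44% higher. In bulk crypts, fewer cells of a type and less RNA per cell cannot be told apart. Retinoid and alcohol metabolism had the lowest median, at -0.32 over 10 tested genes, with 2 that fell (Adh4 and Adh1), 6 lower and 0 higher at an unadjusted p under 0.05. The list's median was -0.50 in Xiap-/- and -0.12 in wild-type mice, and neither Adh4 nor Adh1 passed with the depth proxy as a covariate or without wild-type replicates 5 and 6 housed apart. Beside those, the retinaldehyde dehydrogenase Aldh1a1 had -0.46 ± 0.11 (-0.73 in Xiap-/- and -0.18 in wild-type mice), the cellular retinol-binding protein Rbp2 -0.32 ± 0.08 (-0.46 in Xiap-/- and -0.17 in wild-type mice) and Rdh7, a retinol dehydrogenase, -0.45 ± 0.12 (-0.64 in Xiap-/- and -0.25 in wild-type mice), and none of them passed. All 10 members lay below 0. Members named here and in the rest of the lists that did not pass were chosen after their values were seen, unless they have the highest mean of their list.

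Xenobiotic metabolism had a median of -0.22 over 22 genes (-0.32 in Xiap-/- and -0.14 in wild-type mice), with 12 lower and 0 higher at an unadjusted p under 0.05 and none passing. Of these 22, 1 reached the minimum mean only through its highest group or housing. Of the other 21, 11 were lower, with a median of -0.22. The efflux pump Abcc2 had -0.36 ± 0.09 and the carboxylesterase Ces2e, the member with the highest mean, -0.21 ± 0.08. Without wild-type replicates 5 and 6 housed apart the count of lower members was 6 and the median -0.15. After quantile normalization these were 10 and -0.165. The brush border list, of enzymes and carriers that digest and take up sugars and peptides, had a median of -0.18 over 20 genes, all below 0, with 9 lower at an unadjusted p under 0.05. After quantile normalization the brush border median was -0.12, with 8 lower. The fructose carrier Slc2a5 had -0.37 ± 0.09, lactase (Lct) -0.33 ± 0.12, trehalase (Treh) -0.30 ± 0.09 and sucrase-isomaltase (Sis) -0.26 ± 0.09.

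Fat absorption and apolipoprotein genes had a median of -0.17 over 18 genes, again all below 0, with 8 lower at an unadjusted p under 0.05 and Cd36 the 1 that fell. The lipoprotein components Apoc3 and Apoa4 had -0.46 ± 0.13 and -0.32 ± 0.11. Without wild-type replicates 5 and 6 housed apart 5 members were lower, and after quantile normalization 7, with a median of -0.10. Targets of the fatty acid sensor PPAR and fatty acid oxidation genes had a median of -0.16 over 17 (-0.25 in Xiap-/- and -0.05 in wild-type mice), with 7 lower. The kinase Pdk4 had -0.32 ± 0.10 and Creb3l3, a regulator of fasting lipid metabolism, -0.25 ± 0.08. None of these members except Cd36 passed. T cell markers, which in crypts come from lymphocytes within the epithelium, lay lower as well, with a median of -0.17 over 17 genes (-0.05 in Xiap-/- and -0.25 in wild-type mice) and 5 lower at an unadjusted p under 0.05, or 2 with the depth proxy as a covariate. Of these 17, 1 reached the minimum mean only through its highest group or housing, and of the other 16, 5 were lower. The mean level of the 17 markers ran from 5.04 to 5.67 in co-housed Xiap-/- mice, 5.21 to 5.77 in Xiap-/- mice housed apart, 4.91 to 5.33 in co-housed wild-type mice and 5.17 to 5.70 in wild-type mice housed apart. The part of T cells in the lower lists was not tested.

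Stem cell and Wnt genes had a median of 0.09 over 17, with 8 higher and 0 lower at an unadjusted p under 0.05 and none passing. Of these 17, 1 reached the minimum mean only through its highest group or housing. Of the other 16, 7 were higher and 0 lower, with a median of 0.08. The progenitor surface protein Prom1 had 0.29 ± 0.08, the crypt base factor Sox9 0.27 ± 0.07 and the Wnt feedback gene Axin2 0.19 ± 0.07. Without wild-type replicates 5 and 6 housed apart, or with the depth proxy as a covariate, 5 were higher. Cell cycle genes had a median of 0.08 over 22, with 6 higher and 0 lower. Among them the cyclins Ccnd1 and Ccna2 had 0.39 ± 0.14 and 0.18 ± 0.07 and the chromatin remodeller Hells 0.20 ± 0.08. Without those 2 libraries 3 were higher.

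Among the secretory lineages, 14 of 15 enteroendocrine genes, 13 of 16 goblet cell genes and 8 of 10 alpha-defensins of Paneth cells lay below 0. Of all 9521 tested genes 4805 did. Enteroendocrine genes had a median of -0.17 over 15, with 6 lower at an unadjusted p under 0.05, 4 without wild-type replicates 5 and 6 housed apart and 3 with the depth proxy as a covariate. The hormones somatostatin (Sst) and proglucagon (Gcg) had -0.31 ± 0.10 and -0.24 ± 0.08. Goblet cell genes had a median of -0.11 over 16, with 5 lower, and of -0.07 with 4 lower after quantile normalization. The guanylin precursor Guca2a had -0.46 ± 0.11 and the trefoil peptide Tff3 -0.23 ± 0.09. Of 10 alpha-defensins 0 had an unadjusted p under 0.05, with a median of -0.09, or -0.04 after quantile normalization. Defa24 had -0.04 ± 0.10, lysozyme (Lyz1) -0.12 ± 0.09, the ribonuclease Ang4 -0.19 ± 0.10 and the protease that matures defensins, Mmp7, 0.03 ± 0.13. None of these lists had a passing member, which does not show that their levels were the same.

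Genes that respond to gut microbes had large but uneven differences. Over 15 tested genes the median was 0.19, with 7 higher and 1 lower at an unadjusted p under 0.05 and none passing. The peroxide-making oxidase Duox2 had levels of 5.86, 6.29, 6.67, 6.31 and 5.93 in co-housed Xiap-/- mice, against 5.12, 4.88, 4.78 and 4.96 in Xiap-/- mice housed apart. In co-housed wild-type mice they were 6.45, 6.68, 6.60, 6.44 and 6.22, against a lowest of 5.18, a median of 6.30 and a highest of 6.64 in wild-type mice housed apart. Groups of Xiap-/- mice were separate, and in wild-type mice only replicates 5 and 6 housed apart lay under all co-housed mice. The average difference of 0.87 ± 0.18 (limma adjusted p = 0.0638) was 1.28 in Xiap-/- and 0.47 in wild-type mice. Without those 2 libraries it was 0.66 (limma adjusted p = 0.000169). They were set apart after their low Duox2 levels were seen, so that this pass is no support for Duox2.

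The antimicrobial lectin Reg3g had levels of 12.12, 12.77, 12.76, 12.26 and 12.19 in co-housed Xiap-/- mice, against 11.40, 11.13, 11.81 and 11.31 in Xiap-/- mice housed apart. Co-housed wild-type mice had 13.08, 13.25, 12.97, 13.23 and 13.09, against a lowest of 11.73, a median of 12.96 and a highest of 13.77 in wild-type mice housed apart. The wild-type mice housed apart thus spanned the co-housed range on both sides. Averaged over the genotypes, the difference was 0.69 ± 0.22 (limma adjusted p = 0.162), and without wild-type replicates 5 and 6 housed apart 0.45. Reg3b had 0.57 ± 0.19 (limma adjusted p = 0.186), and its wild-type mice housed apart likewise spanned the co-housed range on both sides. Unlike those of Reg3g, its Xiap-/- groups overlapped, with a highest of 12.59 apart and a lowest of 12.52 co-housed. The kinase adaptor Tifa had 0.50 ± 0.13, and Reg3a, of the same lectin family, differed in sign at -0.55 ± 0.15.

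Transcripts encoded in mitochondrial DNA had a median of 0.31 over 10 genes, all above 0, with 7 higher at an unadjusted p under 0.05 and none passing. The complex I subunits mt-Nd1 and mt-Nd2 had 0.40 ± 0.12 and 0.37 ± 0.11, and mt-Co1 of complex IV had 0.30 ± 0.11. Nuclear genes of the respiratory chain had a median of -0.09 over 31, with 0 higher and 7 lower, but 2 lower after quantile normalization and 0 without wild-type replicates 5 and 6 housed apart. Cytosolic ribosomal proteins had a median of -0.01 over 26 with 0 members at an unadjusted p under 0.05.

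**Figure D4:**
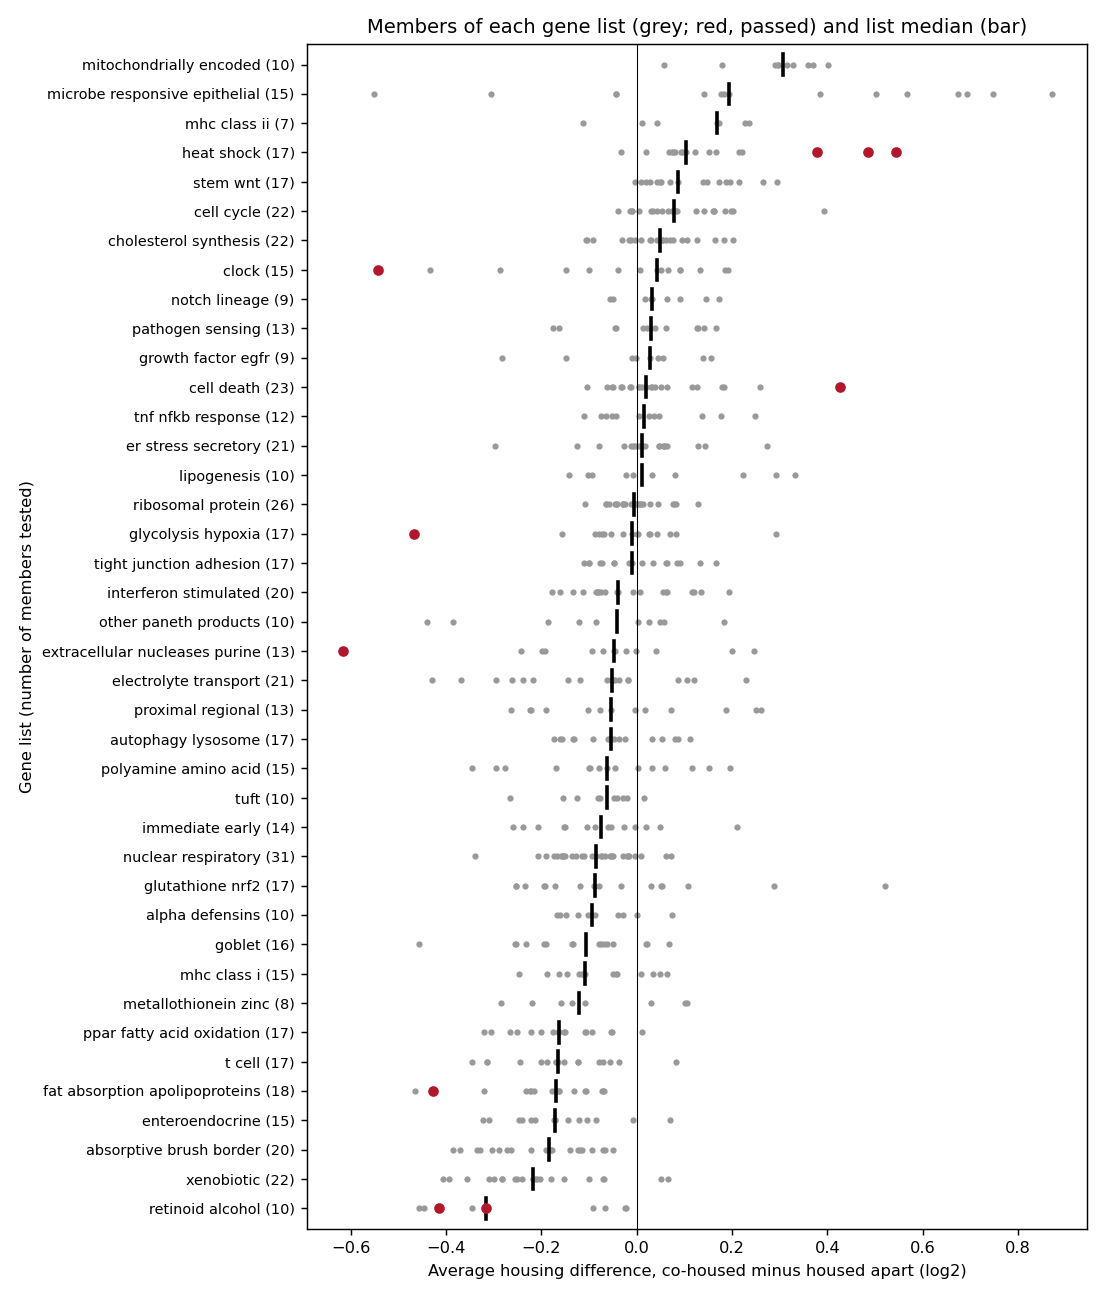
Average log2 difference between co-housed mice and mice housed apart (x axis) of each tested member of 40 gene lists (rows, with the number of members tested), as grey points, red where the gene passed, and a black bar for the list's median. Medians run from 0.31 for mitochondrially encoded genes to -0.32 for retinoid and alcohol metabolism, and passing genes are scattered over 7 lists.

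How many genes passed rested on single libraries. With each of the 20 left out in turn the count ran from 6 to 226. It was 226 without wild-type replicate 4 housed apart, 73 without replicate 2 and 29 without replicate 3 of that group. Without Xiap-/- replicate 1 housed apart it was 27 and without co-housed Xiap-/- replicate 5 it was 26. The count was 6 without Xiap-/- replicate 3 housed apart and 11 without replicate 4 of that group. It was 8 without co-housed wild-type replicate 2 and 8 without co-housed Xiap-/- replicate 2 or 4. The genes that passed in all 20 of these fits were Dnase1, Ndrg1, Ptk6, Ptgr1, Unc5cl and Hspa1b.

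**Figure D5:**
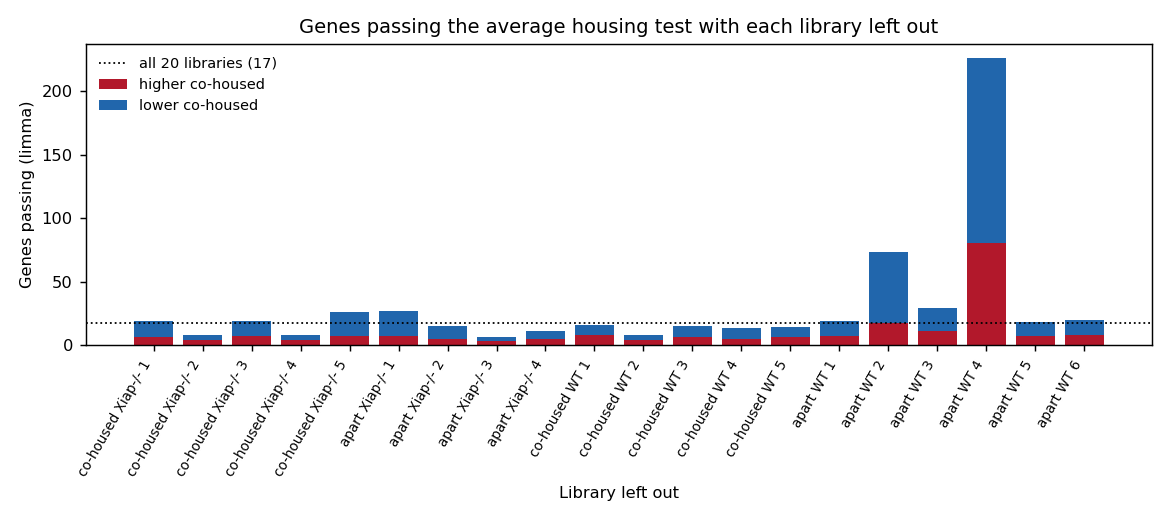
Number of genes passing the average housing test by limma (y axis) with each library named on the x axis left out, split into genes higher (red) and lower (blue) in co-housed mice. The dotted line marks the 17 genes of all 20 libraries, and the bar without wild-type replicate 4 housed apart reaches 226.

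The model, depth and the libraries that stand apart touched further calls. In a model of housing and genotype with no term for their interaction 8 genes passed, and Hspa1b, Hsph1, Hsp90aa1, Slc28a1, Fmo5, Cd36, Adh1, Adh4 and Gsdmc4 no longer did. Fmo5 was also lost after quantile normalization and Slc28a1 with no filter on low genes. The depth proxy was tried as a covariate at a step of 0.015 only. With it 4 genes passed, Dnase1, Ndrg1, Ptk6 and Hspa1b, while the sizes of the others stayed close. Nr1d1 had -0.54 (limma adjusted p = 0.0659), Ptgr1 -0.39 (0.0663), Unc5cl 0.42 (0.0647), Hsph1 0.53 (0.0663) and Slc28a1 -0.57 (0.101). Without wild-type replicates 5 and 6 housed apart 14 genes passed, 10 of them among the 17. Of those shifted alike, Acot4 had -0.29 (adjusted p = 0.0550), Fmo5 -0.26 (0.0788), Hsp90aa1 0.32 (0.0599) and Wdr44 0.28 (0.0550) in that fit and no longer passed.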

How the data were processed

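The deposited file holds log2 values made by the authors for 23020 genes in 20 libraries, between -3.88 and 16.3. DESeq2 1.18.1 and the mouse assembly GRCm38.p6 are named in the submitters' processing notes. The transformation is not given in the sources used here. Low genes lie on a plateau, which may shrink their differences. Counts are not in the values, so depth is unknown and no counting interval is given. Instead a proxy for depth was computed, as the share of 1854 rare genes (mean below -3) more than 0.015 above their median over libraries. Its average housing difference was tested by an exact permutation test of housing within genotype.

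The values were used as deposited, without a pseudocount, by limma 3.58.1 under R 4.3.3. For genes with a mean of at least 3.32, a linear model with 1 mean per group (4 groups) took in all 20 libraries, with trended and robust empirical Bayes moderation and 16 residual degrees of freedom. Each genotype had equal weight in the average. Tests are two-sided, with Benjamini-Hochberg adjustment over the 9521 genes and a threshold of 0.05. The fit was tested on simulated data.

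Named are up to 15 rises and 15 falls that passed and were alike, up to 6 that passed and were not, up to 4 passing members of each of 48 gene lists or the member with the highest mean, and Xiap, Dnase1, Reg3b, Reg3g, Lyz1, Defa24, Ang4 and Mmp7. Some of these are left as counts. The genes studied, the lists and the tests were chosen with earlier results of these data known. Lists are described by counts and medians. Of the tested genes, 63 reached the minimum mean only through their highest group or housing, among those named Hspa1b and Dbp. Positions are from GENCODE M21, in which 97.8% of tested names were found, and 24 names turned into dates were left unnamed. Replicate numbers were shared between groups and were not taken as pairs. Of 27 same-numbered pairs, 10 had residuals correlated above 0.1 (range -0.416 to 0.363). Pairs with different numbers were not set beside them, so that this does not show whether the numbers carry a batch. Alternatives covered the filter, scaling, model, depth covariate, replicate block and each library left out. The fit without wild-type replicates 5 and 6 housed apart was added after the values were seen. Figures were drawn with matplotlib 3.10.9.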

Additional observations from a re-analysis of the deposited data

Results flagged for a closer look

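Of 96 groups of 4 to 6 libraries checked for 1 library far from the others (23 genes and the depth proxy), 4 held one, where chance gives about 1 in 20 groups. Co-housed Xiap-/- replicate 1 had an Ndrg1 level of 8.15, where the other 4 lay between 7.76 and 7.86. Co-housed Xiap-/- replicate 2 had an Fmo5 level of 7.53, where the other 4 lay between 7.76 and 7.81. Among Xiap-/- mice housed apart, replicate 3 had a Reg3b level of 12.59, where the other 3 lay between 11.91 and 12.02. Among wild-type mice housed apart, replicate 5 had a depth proxy of 14.9%, where the other 5 lay between 4.59% and 7.55%. With a step of 0.05 its proxy was 2.05%, below the others.

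The housing difference of Hspa1b in Xiap-/- mice exceeded that in wild-type mice by 1.10 on the log2 scale, the 1 gene for which the test of this difference passed. Hspa1b had a mean of 3.27 over the libraries outside the co-housed Xiap-/- group, under the minimum for testing, so that it was tested only because of the group in which it was high.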

How the results depend on the processing

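The 17 genes with an average housing difference became 27 with no filter (19 lower, 17 alike), 8 in an additive model (3 higher, 5 lower), 135 with array weights (44 higher, 91 lower, 84 alike) and 4 with the depth covariate (2 higher, 2 lower, 3 alike). With the replicate block they were 98 (30 higher, 68 lower, 37 alike), and all 17 were among the 98. Of the 20 libraries, 6 matched best with their own number in another group. Median centring, quantile normalization, a minimum mean of 5 and fits with no trend and no robust step gave 16 to 24. With 1 library left out the count ran from 6 to 226 (3 to 80 higher, 3 to 146 lower, 5 to 165 alike). Without wild-type mice 5 and 6 housed apart 7 were alike.

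The 14 genes in Xiap-/- mice became 9 at a minimum mean of 5, 224 with array weights, 23 with no trend and no robust step, 1 with the depth covariate, 189 with the replicate block, 126 without wild-type mice 5 and 6 housed apart, and 2 to 64 with 1 library left out. The 0 genes in wild-type mice became 5 with no filter, 5 with array weights and 0 to 66 with 1 library left out. The 1 gene that differed by genotype became 0 at a minimum mean of 5, where Hspa1b was not tested, 4 with array weights, 10 with the replicate block and 33 without wild-type mice 5 and 6 housed apart, and stayed 1 with any library left out.

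For 95 single genes, 2836 values under alternatives were computed. The direction turned in 12, all of genes near 0: Mmp7 with the replicate block (-0.0067), without wild-type mice 5 and 6 housed apart (-0.053) and with 1 library left out (-0.028 to 0.088), Trap1 (-0.014 without those mice, -0.00091 to 0.045 with 1 library left out) and Defa24 (-0.080 to 0.010 with 1 library left out). In 98 values a call was lost and in 111 gained. The depth proxy's average difference ran from -4.91 to -1.14 points with 1 library left out. It turned to 0.000345 as an offset of the plateau (exact permutation p = 0.668) and to 2.53 points with a step of 0.05 (exact permutation p = 0.00651). The causes of these changes were not tested. Depth is not in the values, and which genes it limits was not measured.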

Other observations

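Genes of water and ion transport lay below 0 in 17 of 21 tested members, against 4805 of all 9521 tested genes. Their median was -0.05, with 6 lower and 1 higher at an unadjusted p under 0.05 and none passing. Of all tested genes 7.96% were lower and 6.44% higher at that threshold. The water and glycerol channel Aqp3 had -0.37 ± 0.09 and uroguanylin (Guca2b), which steers chloride secretion, had -0.43 ± 0.12, while the potassium channel subunit Kcne3 had 0.23 ± 0.07. Of 10 lipogenesis genes 3 were higher and 0 lower, with the elongase Elovl6 at 0.29 ± 0.07 (0.26 in Xiap-/- and 0.33 in wild-type mice, limma adjusted p = 0.0776). Of 14 immediate early genes 4 were lower and 1 higher, with Junb at -0.26 ± 0.08. Of 13 genes of extracellular nucleases and purine turnover 4 were lower and 1 higher, with Dnase1 the 1 that fell and the ribonuclease Rnase1 at -0.24 ± 0.08 (-0.50 in Xiap-/- and 0.01 in wild-type mice).

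At an unadjusted p under 0.05, interferon-stimulated genes showed 1 higher and 1 lower of 20, MHC class I genes 2 lower of 15 and MHC class II genes 0 of 7. Of all tested genes 6.44% were higher and 7.96% lower at that threshold. The medians of these lists were, in that order, -0.04, -0.11 and 0.17. After quantile normalization MHC class I genes had a median of -0.0042, with 1 higher and 1 lower. The MHC class II median was 0.48 in Xiap-/- and -0.19 in wild-type mice, and that of the average was -0.05 without wild-type replicates 5 and 6 housed apart. Tuft cell genes had 2 lower of 10, among them Ltc4s at -0.27 ± 0.07 (-0.52 in Xiap-/- and -0.01 in wild-type mice). Cholesterol synthesis genes had 2 higher of 22 with a median of 0.05. The 6 ileal bile acid genes and 9 Notch and lineage genes had 0 members at an unadjusted p under 0.05. Among lists with few tested members, both acinar genes were lower, with a median of -0.25, and the 4 B and plasma cell genes had a median of 0.13 that was -0.03 without wild-type replicates 5 and 6 housed apart. The acinar median was -0.44 in Xiap-/- and -0.06 in wild-type mice. That of the B and plasma cell genes differed in sign, at 0.42 in Xiap-/- and -0.15 in wild-type mice.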
